A study of Mus musculus with 14 samples.

Results

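The 36 genes described here carry a cell through chromosome duplication and division. They were taken by symbol from a fixed list, each matched a single row, and they make up 36 of the 54532 rows of the gene count table. Of these, 15 act in S phase or its preparation (S-phase genes) and 21 act in mitosis or its preparation (mitotic genes). The genes were measured by bulk RNA sequencing of ileal mucosa from male mice that had eaten a high-fat diet for 15 weeks. The 7 control mice (WT) carried NCoR1 flox/flox alleles without Cre, and the 7 knockout mice (IKO) carried the same floxed alleles together with Cre recombinase under the villin promoter, which is active in intestinal epithelial cells. NCoR1 is a corepressor that holds nuclear receptors in a repressed state when no ligand is bound. The comparison asks whether the proliferation programme of the mucosa differed between the genotypes, and whether S-phase genes and mitotic genes moved apart.

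In the small intestine, stem cells at the crypt base feed rapidly cycling transit-amplifying cells, whose daughters stop dividing as they move onto the villus. Genes for replication are switched on late in G1, when E2F transcription factors are released from retinoblastoma proteins, and genes for mitosis follow in G2, when the repressive DREAM complex has given way to the activators B-MYB and FOXM1. The messenger RNAs of both programmes are widely used to gauge proliferation in a tissue. In bulk mucosa, fewer cycling cells and less RNA per cycling cell cannot be told apart.

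Library totals ran from 14749669 to 21557468 counts. Ncor1, the targeted gene (chr11:62316426-62458541), was measured at 106 to 195 CPM (read counts relative to the TMM-scaled library total) in WT mice and at 31.7 to 64.0 CPM in IKO mice, with no overlap (log2 fold change -1.41, SE 0.18, adjusted p = 0.00051). The samples are labelled as intestinal epithelial cells but were scraped, and other cells came along: 9 epithelial markers summed to 12006 to 22186 CPM, 10 T cell markers to 93.9 to 290 CPM and 9 B cell markers to 6.21 to 722 CPM. The mitochondrial genome supplied 23.9% of counts in WT 3 and 50.3% in IKO 4, against 3.49% to 10.3% in the other mice. Smooth muscle genes summed to 13415 CPM in WT 4 and to at most 970 CPM in IKO mice. The labels do not say whether mice shared a litter or cage.

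Motif matches in the promoters differed in frequency between the classes. A 300-base window, from 250 bases before to 50 bases after the RefSeq start site (GRCm38.p6), was at hand for 30 of the 36 genes, 13 S-phase and 17 mitotic; Mcm4, Gins2, Ccna2, Aurkb, Tpx2 and Kif20a had none. An E2F site, searched on both strands as TTTCCCGC, TTTGGCGC, TTTCGCGC or TTTGCCGC, was found in 5 of 13 S-phase windows (38.5%), 1 of 17 mitotic windows (5.88%) and 2.26% of all 32851 windows. A cell cycle homology region (CHR), the element bound by DREAM and by B-MYB with FOXM1 and searched as TTTGAA or TTCGAA, was found in 14 of 17 mitotic windows (82.4%), 3 of 13 S-phase windows (23.1%) and 19.2% of all windows. The CCAAT box, bound by NF-Y, was found in 16 of 17 mitotic (94.1%), 9 of 13 S-phase (69.2%) and 37.4% of all windows. A match is a string of letters and no proof of binding.

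**Figure D1:**
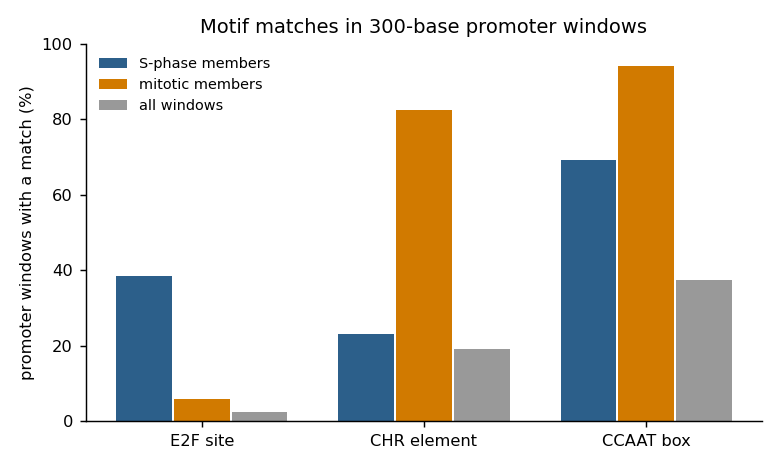
Share of promoter windows with at least 1 match to each motif on either strand, in percent, for the 13 S-phase members, the 17 mitotic members and all 32851 windows. E2F sites were most frequent in the S-phase windows (38.5%), CHR elements (82.4%) and CCAAT boxes (94.1%) in the mitotic windows.

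The 200 bases before the start site are printed for 3 helicase genes with E2F sites and for 5 mitotic genes with CHR elements or CCAAT boxes, 5′ to 3′ along the gene, with all matches to the 3 motifs in capitals; adjoining or overlapping matches form 1 run.
Mcm5 (chr8:75109309-75109508, plus strand): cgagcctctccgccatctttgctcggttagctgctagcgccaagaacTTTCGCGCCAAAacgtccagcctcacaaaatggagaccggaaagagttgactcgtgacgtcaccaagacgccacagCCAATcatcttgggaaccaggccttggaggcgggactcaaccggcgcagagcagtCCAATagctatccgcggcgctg
Mcm6 (chr1:128359706-128359905, minus strand): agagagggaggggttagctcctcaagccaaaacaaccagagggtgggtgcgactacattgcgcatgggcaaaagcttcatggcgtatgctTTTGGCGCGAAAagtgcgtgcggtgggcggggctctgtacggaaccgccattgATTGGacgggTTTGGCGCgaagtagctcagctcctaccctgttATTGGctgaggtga
Mcm7 (chr5:138171884-138172083, minus strand): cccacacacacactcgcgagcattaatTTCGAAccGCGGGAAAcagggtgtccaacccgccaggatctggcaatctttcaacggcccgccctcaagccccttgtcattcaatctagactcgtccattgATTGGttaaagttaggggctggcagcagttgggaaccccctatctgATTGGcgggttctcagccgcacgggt
Cdk1 (chr10:69352913-69353112, minus strand): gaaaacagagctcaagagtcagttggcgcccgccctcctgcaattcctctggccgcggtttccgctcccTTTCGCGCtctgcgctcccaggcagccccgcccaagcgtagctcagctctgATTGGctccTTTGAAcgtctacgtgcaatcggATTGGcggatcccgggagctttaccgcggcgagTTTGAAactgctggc
Ccnb2 (chr9:70421555-70421754, minus strand): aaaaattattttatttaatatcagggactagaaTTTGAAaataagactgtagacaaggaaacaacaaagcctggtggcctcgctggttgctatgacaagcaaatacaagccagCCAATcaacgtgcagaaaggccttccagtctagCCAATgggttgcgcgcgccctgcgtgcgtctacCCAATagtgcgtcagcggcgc
Cdc20 (chr4:118437344-118437543, minus strand): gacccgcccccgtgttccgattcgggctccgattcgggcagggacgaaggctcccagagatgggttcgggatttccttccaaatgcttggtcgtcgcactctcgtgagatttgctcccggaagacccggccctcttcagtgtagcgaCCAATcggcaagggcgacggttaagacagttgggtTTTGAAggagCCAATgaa
Top2a (chr11:99024190-99024389, minus strand): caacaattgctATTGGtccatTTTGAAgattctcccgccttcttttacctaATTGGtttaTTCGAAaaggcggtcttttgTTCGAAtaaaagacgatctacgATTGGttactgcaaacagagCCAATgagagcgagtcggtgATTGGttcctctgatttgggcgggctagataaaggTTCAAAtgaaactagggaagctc
Mki67 (chr7:135716380-135716579, minus strand): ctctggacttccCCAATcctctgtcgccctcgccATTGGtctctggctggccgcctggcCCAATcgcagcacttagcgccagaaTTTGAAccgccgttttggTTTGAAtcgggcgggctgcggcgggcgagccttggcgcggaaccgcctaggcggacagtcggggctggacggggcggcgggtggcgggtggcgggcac
In Mcm5 and Mcm6 a pair of E2F sites on opposite strands overlapped. Ccnb2, the gene for cyclin B2, showed 3 CCAAT boxes in a row, and the window of Top2a held 4 CHR elements and 6 CCAAT boxes. The bases before Mki67 held 3 CCAAT boxes followed by 2 CHR elements. These RefSeq start sites lay 0 to 60 bases from the gene starts of the count table, except 539 bases for Mcm7.

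None of the 36 genes passed the test between genotypes. All 36 were counted well enough to be tested (14 to 2841 counts per mouse), and edgeR called 0 of them at an adjusted p under 0.05, while 8.67% of the 13846 genes tested were called (4.38% higher in IKO and 4.28% lower). At an unadjusted p under 0.05 there were 3 members (Mki67, Mcm2 and Birc5), against 30.4% of all genes. Fitted log2 fold changes were above 0 for 18 of the 36 members and for 43.5% of all genes, and no member had genotypes without overlap, against 3.1% of all genes. DESeq2 called 1 member, Mki67, lower in IKO (17.9% of all genes were called in that fit), and limma-voom with sample quality weights called 3, Mki67, Mcm2 and Cenpf, all lower (13.6%). Scaling by library size alone called Mki67, Mcm2 and Cenpe lower, in a fit that placed the median gene at -0.49 and the median member at -0.45.

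S-phase and mitotic genes differed as classes by less than the spread between mice. The median log2 fold change was -0.02 over the 15 S-phase genes (7 above 0 and 8 below) and 0.05 over the 21 mitotic genes (11 above 0 and 10 below), against -0.09 over all genes tested. With limma-voom the medians were -0.23 and -0.27 and 8 of the 36 members lay above 0, and with library size alone they were -0.48 and -0.41 and 2 members lay above 0. The mean level of the S-phase genes was 3.28 ± 0.56 log2 CPM in WT mice and 3.37 ± 0.27 in IKO mice (SD, n = 7 each), and that of the mitotic genes was 3.59 ± 0.65 and 3.58 ± 0.29. The S-phase level minus the mitotic level was -0.31 ± 0.24 in WT and -0.21 ± 0.20 in IKO mice. This difference of 0.10 lay within the spread between mice of one genotype (0.22), and it was 0.06 when Ccna2, Mki67, Top2a and E2f1, whose expression spans phases, were left out.

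**Figure D2:**
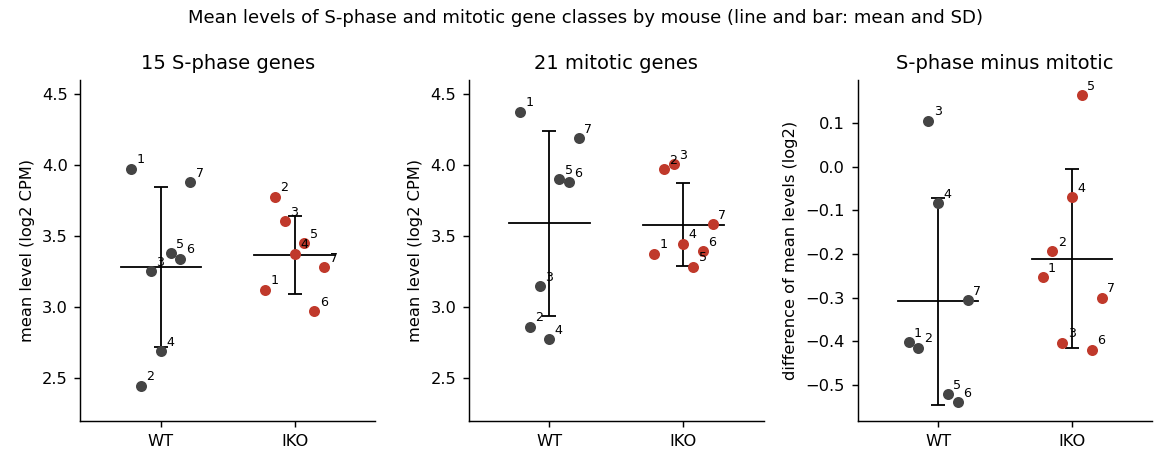
Mean log2 CPM of the 15 S-phase genes (left) and the 21 mitotic genes (middle), and their difference (right), in each mouse, with the mouse number beside each point and the mean and SD as line and bar. WT mice ran from 2.45 to 3.97 for S-phase genes and from 2.78 to 4.38 for mitotic genes, and all 7 IKO mice lay inside both ranges.

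WT mice differed among themselves more widely than IKO mice. The summed level of the 36 genes ran from 330 to 868 CPM in WT mice (median 615) and from 466 to 753 CPM in IKO mice (median 506). The SD of log2 CPM was larger in WT than in IKO mice for 28 of the 36 genes (77.8%, against 57.2% of all genes tested), with a median SD of 0.71 in WT and 0.38 in IKO mice, against 0.50 and 0.47 over all genes. WT 1 was the highest WT mouse for 24 genes (8 S-phase and 16 mitotic) and WT 2 the lowest for 18, followed by WT 4 with 11. Among the knockouts, IKO 2 was the highest for 22 genes. The spread itself was not tested.

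The same mice were high or low for both classes. Across the 14 mice the S-phase level and the mitotic level moved together (Pearson's r = 0.89, Spearman's rho = 0.86; r = 0.93 within WT and 0.74 within IKO mice; r = 0.83 without WT 1 and WT 4, the mice farthest from the median). After removing the genotype means, the mean correlation over all pairs of the 36 genes was 0.64, against 0.0042 over all pairs of the 13846 genes tested. Tpx2, a spindle assembly factor, and Mcm6 followed the other members most closely (median r 0.85 and 0.83), and Mki67 least (0.37), with Kif20a (0.46) and Kif23 (0.46) next. These correlations share libraries and scaling and are given as a description.

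Markers of other cells were set beside the level of the 36 genes, and their part in it was not tested. The members' mean level had r = 0.57 (rho = 0.56) with 8 Paneth cell genes, which mark the crypt base, and r = 0.45 (rho = 0.46) with 14 crypt stem cell genes, the latter falling to 0.15 without WT 1 and WT 2. With 15 villus enterocyte genes r was -0.35 (rho = -0.28). The T cell genes had r = 0.60 within WT and -0.78 (rho = -0.86) within IKO mice. The B cell, plasma cell, smooth muscle, myeloid and epithelial lists, the mitochondrial share and the log2 library total gave r between -0.26 and 0.38 over all mice. Of these, the log2 library total had rho = 0.52 (r = 0.53 within WT and -0.04 within IKO mice). The epithelial list had r = -0.62 within WT and 0.0003 within IKO mice. WT 4 had the lowest Paneth cell sum of the WT mice (703 CPM, against 5726 in WT 1, the highest) and WT 2 had their highest villus enterocyte sum (82851 CPM). Germinal centre B cells are another fast-cycling population of ileal mucosa. Their 8 markers summed to 36 to 57.4 CPM in WT and 29.3 to 75.7 CPM in IKO mice, and their mean log2 level had r = 0.44 (rho = 0.24) with that of the members (0.61 within WT, -0.39 within IKO mice, and 0.03 over all mice without WT 1 and WT 2). Among WT mice that level was highest in WT 7 (2.50 log2 CPM) and WT 1 (2.39), which also had the highest levels of the 36 genes. Of the 7 markers tested, 5 had fold changes below 0 and 2 above 0 (median -1.17), where 43.5% of all genes were above 0. The share at an unadjusted p under 0.05 was 71.4%, against 30.4% of all genes (4 markers below 0 and 1 above). Only Bcl6, named after its values were seen, was called, against 8.67% of all genes. It was higher in IKO (1.04, adjusted p = 0.013).

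Among S-phase genes, the helicase subunits come first. Mcm2 to Mcm7 encode the ring that unwinds DNA at the fork; 5 of the 6 fold changes were below 0 (median -0.17), of which that of Mcm5 turned to 0.01 with RLE size factors. Mcm2 was measured at 12.0 to 20.1 CPM in WT mice (median 16.0) and at 9.47 to 17.7 CPM in IKO mice (median 11.9). Of the 7 IKO mice, 6 lay below the WT median, and the ranges overlapped. Its log2 fold change was -0.37 (SE 0.17, 95% CI -0.74 to -0.0024, unadjusted p = 0.049, adjusted p = 0.16). Mcm6 had -0.39 (SE 0.25, adjusted p = 0.31), with 12.3 to 43.1 CPM in WT mice and 13.6 to 25.4 CPM in IKO mice, so that the WT range enclosed the IKO range. Mcm4 had -0.26, Mcm3 -0.08, Mcm5 -0.02 and Mcm7 0.08, the last on a locus shared with Cops6 and Ap4m1 on the opposite strand.

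No member for origin firing or the sliding clamp passed the test. Pcna, which encodes the clamp that tethers polymerases to DNA, had the highest level per kilobase of gene length of the 36 genes in both genotypes (23.0 CPM per kb in WT and 27.5 in IKO). It was measured at 34.9 to 67.7 CPM in WT mice (median 55.4) and at 61.3 to 75.8 CPM in IKO mice (median 64.3). All 7 IKO mice lay above the WT median, but 3 of the 7 WT mice lay within the IKO range. The log2 fold change was 0.26 (SE 0.16, 95% CI -0.07 to 0.60, adjusted p = 0.27), and it was -0.15 with library size alone. Cdc45 and Gins2, which complete the active helicase, had 0.36 (SE 0.34) and 0.13 (SE 0.35). Cdc6, which loads the MCM ring at origins, had -0.07 (SE 0.26).

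None of the 4 members for the supply of DNA building blocks passed the test. Rrm1 and Rrm2 encode the subunits of ribonucleotide reductase, and their log2 fold changes were 0.22 (SE 0.29) and -0.03 (SE 0.36). Tyms, the thymidylate synthase gene, had 0.17 (SE 0.27) and Tk1, for thymidine kinase, 0.18 (SE 0.21). Rrm2 showed the wide WT range plainly, with 1.74 to 13.7 CPM in WT mice around a median of 8.10 and 5.68 to 10.2 CPM in IKO mice around a median of 8.07. E2f1, the transcription factor gene, had -0.16 (SE 0.32). The confidence intervals of these 5 genes reached from -0.84 to 0.83, which leaves changes of up to that size on the log2 scale unresolved.

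**Figure D3:**
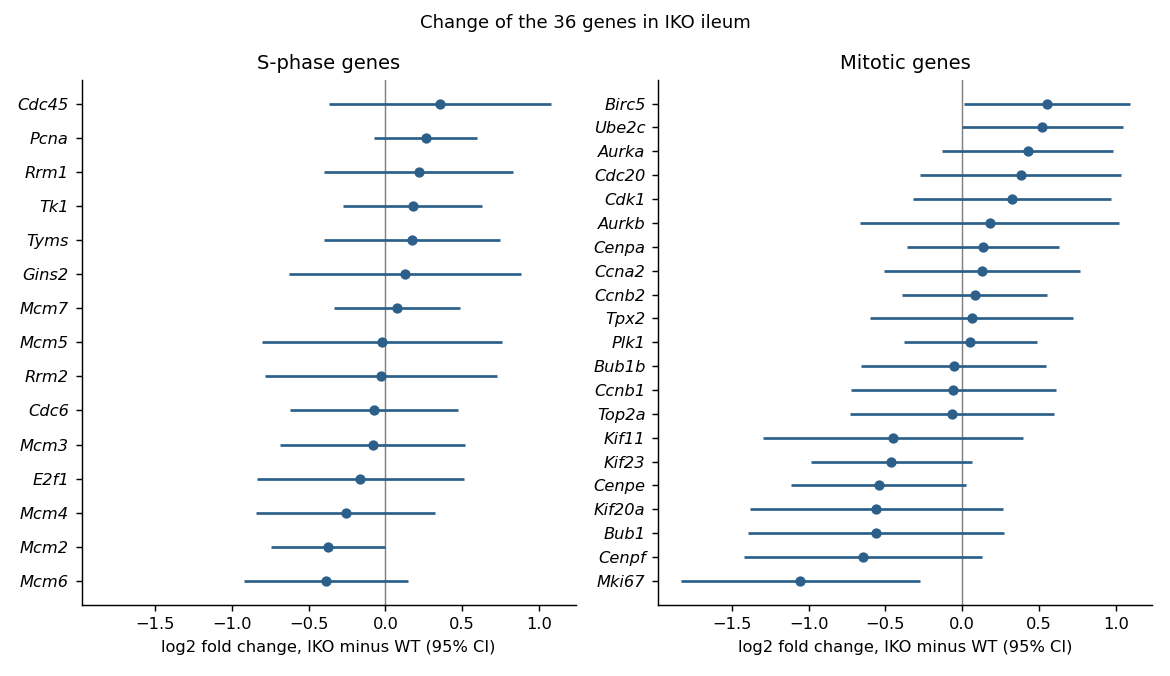
Log2 fold change of each gene, IKO minus WT, from edgeR, with its 95% confidence interval, for the 15 S-phase genes (left) and the 21 mitotic genes (right), n = 7 mice per genotype. The intervals of Mcm2, Birc5 and Mki67 exclude 0, Mki67 lies lowest at -1.05, and no gene had an adjusted p under 0.05.

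Mitotic genes spread further in both directions than S-phase genes, from -1.05 to 0.55 against -0.39 to 0.36. The 95% intervals of the cyclins and their kinase all included 0. Ccnb1 had -0.06 (SE 0.31), Ccnb2 0.08 (SE 0.22) and Ccna2 0.13 (SE 0.30). Cdk1, the kinase that drives entry into mitosis, had 0.33 (SE 0.30). The 5 mitotic kinases and their partners had fold changes above 0, although with library size alone only Birc5 kept that sign. Birc5, for survivin, the chromosomal passenger that guides Aurora B, was measured at 7.36 to 25.2 CPM in WT mice (median 18.1) and at 18.0 to 36.3 CPM in IKO mice (median 21.1). In 6 of 7 IKO mice it lay above the WT median, and IKO 2 was the highest. The log2 fold change was 0.55 (SE 0.26, 95% CI 0.0096 to 1.09, unadjusted p = 0.047, adjusted p = 0.16). Aurka had 0.43 (SE 0.26), Aurkb 0.18 (SE 0.40), Tpx2 0.06 (SE 0.31) and Plk1 0.05 (SE 0.21).

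None of the 4 members for the ubiquitin ligase that ends mitosis and the checkpoint that restrains it passed the test. Ube2c encodes the ubiquitin-conjugating enzyme of the anaphase-promoting complex, and ran from 19.6 to 39.9 CPM in WT mice (median 31.5) and from 27.2 to 78.9 CPM in IKO mice (median 35.2). The highest value again came from IKO 2. Its log2 fold change was 0.52 (SE 0.25, adjusted p = 0.17), and 0.28 without IKO 2. Cdc20, the activator of that complex, had 0.38 (SE 0.31; -0.03 with limma-voom and -0.11 with library size alone), on a locus where Elovl1, with more counts, lies on the opposite strand. Of the checkpoint kinase genes, Bub1 had -0.56 (SE 0.39) and Bub1b -0.06 (SE 0.28).

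Of 6 centromere and kinesin genes, 5 had fold changes below 0, and none passed the test. Cenpe, a kinetochore motor, was measured at 6.70 to 13.9 CPM in WT mice (median 9.99) and at 2.84 to 9.84 CPM in IKO mice (median 7.81). Cenpf, a large kinetochore protein gene, ran from 3.61 to 16.3 CPM in WT mice (median 9.996) and from 3.35 to 8.78 CPM in IKO mice (median 6.14). For both genes all 7 IKO mice lay below the WT median, with overlap, and the log2 fold changes were -0.54 (SE 0.27, adjusted p = 0.18) and -0.65 (SE 0.37, adjusted p = 0.24). Cenpa, which encodes the centromeric histone, had 0.13 (SE 0.23). The spindle motors Kif11, Kif23 and Kif20a had -0.45 (SE 0.40), -0.46 (SE 0.25) and -0.56 (SE 0.39).

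Mki67, the gene for the proliferation antigen Ki-67 (chr7:135689784-135716361), differed most. It was measured at 75.0 ± 25.4 CPM in WT mice and at 36.1 ± 21.9 CPM in IKO mice (SD, n = 7 each). WT mice ran from 44.3 to 108 CPM (median 79.6) and IKO mice from 12.7 to 60.4 CPM (median 26.9). IKO 1, 2, 4 and 5 lay between 12.7 and 26.9 CPM, under every WT mouse, while IKO 3, 6 and 7 lay between 57.0 and 60.4 CPM, inside the WT range. The log2 fold change was -1.05 (SE 0.37, 95% CI -1.83 to -0.28), with unadjusted p = 0.011 and adjusted p = 0.077 in edgeR, adjusted p = 0.036 in DESeq2 and adjusted p = 0.045 in limma-voom. A two-sided exact permutation test over the 14 mice gave an unadjusted p = 0.013, where the smallest possible value is 0.00058. Top2a, the topoisomerase gene that untangles chromosomes and the next most abundant of the long mitotic genes, had -0.07 (SE 0.31), with 18.4 to 79.4 CPM in WT mice and 25.1 to 58.8 CPM in IKO mice.

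**Figure D4:**
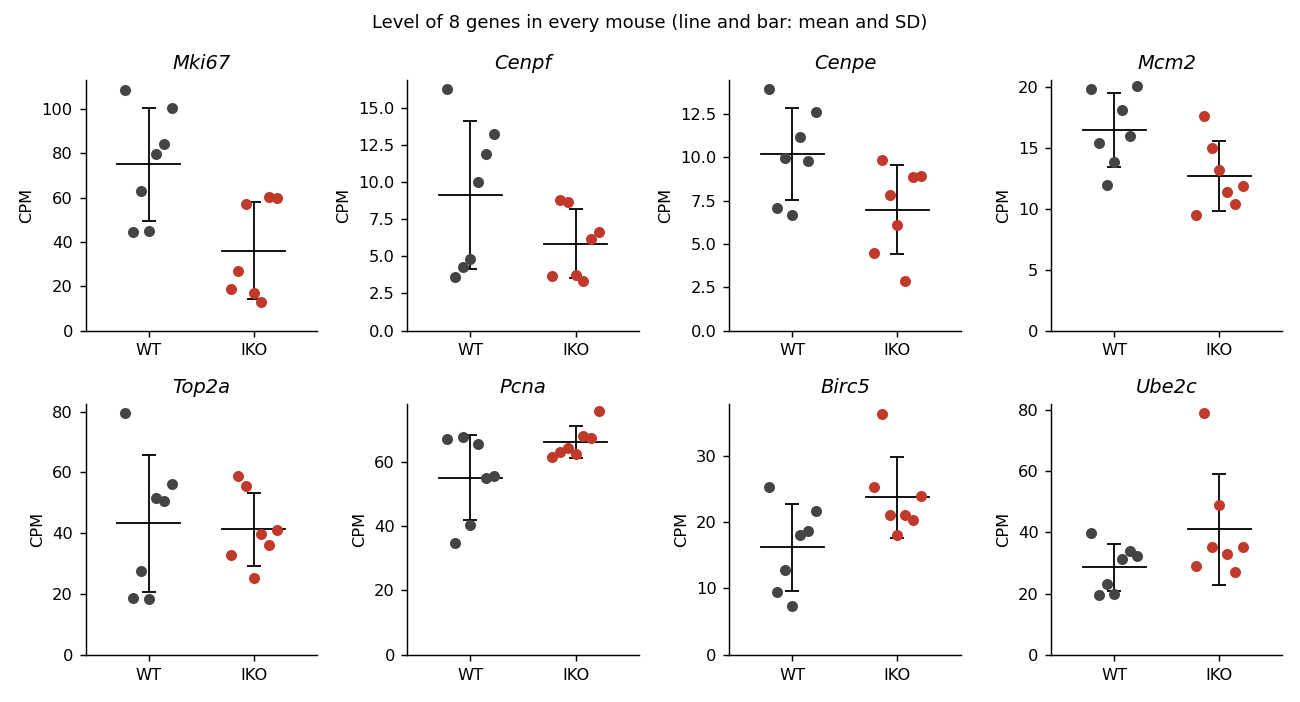
Level in CPM of 8 genes in every mouse, with the mean and SD of each genotype as line and bar. Mki67, Cenpf and Cenpe lie below the WT median in all 7 IKO mice and Pcna above it in all 7, while the genotypes overlap in every panel.

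Fold change went with gene length. Across the 36 genes, fold change and gene length in the count table had a Spearman's rho of -0.46 (-0.64 over the mitotic and -0.06 over the S-phase genes), and across all 13846 genes tested rho was -0.25. Over all genes the median log2 fold change went from 0.14 for lengths up to 2000 bases to -0.32 above 8000 bases. The 5 members above 8000 bases (Rrm1, Top2a, Cenpe, Mki67 and Cenpf) had a median of -0.54, with 4 below 0, and the 13 members from 2000 to 4000 bases had a median of 0.05. Genes are not independent replicates, and these values carry no test.

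The length pattern differed from mouse to mouse. The contrast of genes above 8000 bases with genes up to 2000 bases (the difference of their median deviations from the mean of all mice) ran from -0.13 to 0.48 on the log2 scale in WT mice and from -1.05 to 0.39 in IKO mice. It was -0.22 in IKO 1, -1.05 in IKO 2, -0.72 in IKO 4 and -0.19 in IKO 5, and 0.39 in IKO 3, 0.06 in IKO 6 and 0.12 in IKO 7. The part of the length pattern in the Mki67 value was not tested beyond the fit that follows. When each library's length trend was removed, Mki67 had -0.86 (SE 0.30, adjusted p = 0.082), Cenpf -0.24, Cenpe -0.31, Mcm2 -0.18, Top2a 0.20 and Rrm1 0.55 (adjusted p = 0.22), and no member was called. The mitotic genes Kif23, Kif11, Kif20a and Bub1, each under 8000 bases, went from -0.46, -0.45, -0.56 and -0.56 to -0.28, -0.36, -0.53 and -0.50.

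**Figure D5:**
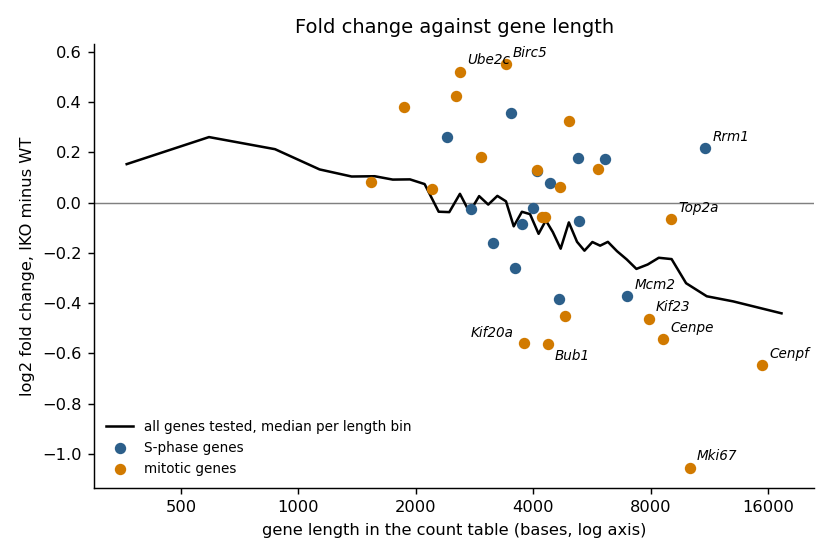
Log2 fold change, IKO minus WT, against gene length in bases (log axis), for the S-phase and mitotic genes, with the median of all genes tested in successive length bins as a line. Mki67, Cenpf and Cenpe lie at the long end below 0, and the line of all genes falls from above 0 to below 0 with length.

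Beyond the 36 genes, 5 lists of other cell cycle genes were read in the same fit. Of 43 further replication genes and 71 further mitosis genes edgeR called 0, DESeq2 called 1 and 3, and limma-voom called 2 and 7. At an unadjusted p under 0.05, there were 5 replication genes (4 below 0 and 1 above) and 8 mitosis genes (6 below 0 and 2 above). These were 11.6% and 11.3% of the 2 lists, against 30.4% of all genes. The smallest p-values belonged to Orc3 (-0.62, adjusted p = 0.057) and Orc4 (-0.53, adjusted p = 0.090), subunits of the origin recognition complex, and to Smc4 (-1.05, adjusted p = 0.077), a condensin subunit, and Ndc80 (-1.001, adjusted p = 0.082), a kinetochore protein. Over the 175 genes of all 5 lists edgeR called 5 (2.86%, against 8.67% of all genes), DESeq2 13 (7.43%, against 17.9%) and limma-voom 19 (10.9%, against 13.6%). The mean level of the 71 mitosis genes followed that of the 36 members with r = 0.97 (rho = 0.94), and that of the 43 replication genes with r = 0.92 (rho = 0.85).

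Of 12 CDK inhibitors and antiproliferative genes, 2 were called, Btg2 and Btg1, both higher in IKO (16.7%, against 8.67% of all genes). Fold changes were above 0 for 7 of the 12 and below 0 for 5, with a median of 0.09. Btg2, a p53-inducible gene whose product slows division and promotes mRNA deadenylation, was measured at 76.0 to 133.5 CPM in WT mice (median 106) and at 134.4 to 321 CPM in IKO mice (median 215). The genotypes did not overlap, as for 3.1% of all genes, and the log2 fold change was 1.08 (SE 0.20, adjusted p = 0.0071). It was called in all 26 alternative fits (adjusted p from 8.2e-06 to 0.046). Btg1, its relative, had 0.57 (SE 0.17, adjusted p = 0.04997). It was called in 9 of 26 alternatives, and when 1 mouse was left out it was called only without WT 3 and without IKO 3, with an adjusted p from 0.056 to 0.096 without any of the others.

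Of 29 G1/S regulators 2 were called (6.9%, against 8.67% of all genes), 1 higher and 1 lower in IKO. Cdc25a, the phosphatase gene that activates CDK2, ran from 36.9 to 57.8 CPM in WT mice and from 59.8 to 90.9 CPM in IKO mice. The genotypes did not overlap, as for 3.1% of all genes, and its log2 fold change was 0.58 (SE 0.13, adjusted p = 0.019). It was called in 22 of 26 alternatives and lost with library size alone (0.17, adjusted p = 0.41), with no filter on low counts (0.59, adjusted p = 0.051), with the replicate block (0.58, adjusted p = 0.087) and without IKO 4, WT 3 and WT 4 (0.49, adjusted p = 0.069). Tfdp2, a dimer partner of E2F factors, ran from 32.5 to 56.2 CPM in WT mice and from 24.5 to 36.5 CPM in IKO mice (-0.66, SE 0.14, adjusted p = 0.014). It was called in 22 of 26 alternatives. Once the length trend was removed it had -0.33 (adjusted p = 0.12), and -0.32 (adjusted p = 0.16) also without IKO 4 and WT 3. Its adjusted p was 0.063 with the replicate block and 0.076 without IKO 4, WT 3 and WT 4. Of 20 further genes of nucleotide synthesis 1 was called (5.0%, against 8.67% of all genes). This was Rrm2b, the p53-inducible reductase subunit used outside S phase. It fell from 5.49 ± 1.75 CPM in WT to 2.19 ± 0.96 CPM in IKO mice (-1.32, SE 0.32, adjusted p = 0.022). It was called in 19 of 26 alternatives. Its adjusted p was 0.050 without IKO 1, 0.051 without IKO 5, 0.060 with the replicate block and 0.062 with no filter on low counts. It was 0.064 without IKO 4 and WT 3, and 0.10 without WT 4 as well. With the length trend removed and without IKO 4 and WT 3 it was 0.077.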

How the data were processed

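Total RNA from scraped ileal mucosa of 14 male mice was sequenced as paired-end reads by the authors, who, per the labels' processing notes, aligned to mm10 with HISAT2 2.0.5 and counted per gene with featureCounts 1.5.0-p3. The deposited gene counts were used as they stand; the annotation release and strand setting are not given in the sources used here, so members that overlap genes on the opposite strand (Mcm7, Cdc45, Gins2, Tk1, Ccna2, Cdc20, Plk1 and Kif20a) are uncertain to that extent. The authors' gene length column served for levels per kilobase and the length comparison, and a deposited FPKM table was not used.

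Counts were tested with edgeR 4.0.16 (R 4.3.3; filterByExpr, TMM, quasi-likelihood F test, 7 WT against 7 IKO, Benjamini-Hochberg over 13846 genes, threshold 0.05). The authors' own test, DESeq2 (1.42.0 here), and limma-voom 3.58.1 were alternatives, with other scalings, filters, a replicate block and each mouse left out. Levels are CPM on TMM-scaled library sizes, and log2 CPM used a prior count of 2. The fits were tested on simulated data drawn at the real means and dispersions. Of the changes simulated there, 22.7% of those of 2-fold and 81.7% of those of 4-fold were recovered. Most true changes of 2-fold could therefore be missed. Replicate numbers did not pair the mice. Precision is set by 7 mice per genotype and by 14749669 to 21557468 counts per library; counting intervals were not computed. The length trend was a lowess curve of level on log2 length in each library. Promoter windows came from RefSeq (GRCm38.p6); the first window listed was used for each member.

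All 36 members were named. Of the other cell cycle lists, genes with an adjusted p under 0.05 were named, and the 2 with the smallest p in a list with none. Lists of crypt stem, Paneth, enterocyte, epithelial, B, germinal centre B, T, plasma, smooth muscle and myeloid genes were used as sums and mean levels. The fold changes and p-values of their genes were also counted. Single genes of these lists were named after their values were seen. Members and lists were chosen with earlier results of these data known.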

Additional observations from a re-analysis of the deposited data

Results flagged for a closer look

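In 102 groups of 7 mice (51 measures in each genotype), the highest or lowest mouse stood apart from the rest by Dixon's test at 95% in 7 groups, where chance gives about 5. Of the 36 genes, E2f1 and Cdk1 were set apart by IKO 2, with 2.27 log2 CPM against 1.79 in the next IKO mouse for E2f1, and 4.57 against 3.89 for Cdk1. IKO 2 was also the highest IKO mouse for 22 of the 36 genes and had the lowest contrast of long with short genes (-1.05). The share of mitochondrially encoded counts was 23.9% in WT 3 (next 10.3%) and 50.3% in IKO 4 (next 6.10%). The TMM factor of IKO 4 was 0.579, with the next at 0.888. The plasma cell level was 1.30 log2 CPM in IKO 1 (next 2.90), and the smooth muscle level 9.82 log2 CPM in WT 4 (next 2.94). Leaving out any of these mice left 0 of the 36 genes called by edgeR.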

How the results depend on the processing

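The processing was changed in 26 fits. The count of members called stayed at 0 in 23 of them, which include every fit without 1 mouse and the fits without IKO 4 and WT 3 or also without WT 4. It was 1 with DESeq2 (1 mitotic gene), 3 with library size alone (1 S-phase and 2 mitotic) and 3 with limma-voom (1 S-phase and 2 mitotic), all lower in IKO. Across all genes tested, 1200 were called in the fit as reported, 2484 with DESeq2, 1889 with limma-voom, 3380 with library size alone (195 higher and 3185 lower, against 607 and 593), 508 with no filter on low counts, and 600, 728, 746, 789, 526 and 515 without WT 7, IKO 2, WT 4, IKO 7, IKO 1 or IKO 5. It was 648 without IKO 4 and WT 3 and 433 without WT 4 as well. The S-phase median was -0.48 with library size alone. The S-phase minus mitotic difference of mean levels was recomputed under other scalings, another prior count, without mitochondrial genes, without genes that span phases, and without 1 or more mice, and ran from 0.04 to 0.20 there. It was not recomputed with DESeq2, limma-voom, the replicate block or other filters.

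Replicate numbers did not pair the mice: same-numbered mice had correlations from -0.31 to 0.23, and only number 2 matched its own number best. With the replicate block 362 genes and 0 members were called.

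Of the other cell cycle genes (3 higher, 2 lower), 6 and 7 were called with DESeq2, 1 and 20 with library size alone, 1 and 1 with no filter, 6 and 13 with limma-voom, 1 and 0 with the replicate block, 1 and 0 without IKO 4, WT 3 and WT 4. The lower count was 4 with at least 10 counts in every sample, 1 without IKO 4 and WT 3, 1 with the length trend removed, 0 with that and without IKO 4 and WT 3, and from 1 to 4 when 1 mouse was left out.

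Of 936 values of single members, 837 kept their direction and 99 turned, the smallest adjusted p among the latter being 0.28. The causes were not tested. With DESeq2 the turned log2 fold changes were 0.011 for Mcm5 and 0.0040 for Rrm2. With RLE size factors the turned log2 fold changes were 0.0099 for Mcm5 and 0.0041 for Rrm2. With library size alone the turned log2 fold changes were -0.38 for Mcm7, -0.18 for Cdc45, -0.36 for Gins2, -0.15 for Pcna, -0.24 for Rrm1, -0.30 for Tyms, -0.22 for Tk1, -0.33 for Ccna2, -0.36 for Ccnb2, -0.14 for Cdk1, -0.11 for Cdc20, -0.36 for Plk1, -0.067 for Aurka, -0.32 for Aurkb, -0.41 for Tpx2 and -0.31 for Cenpa. With at least 10 counts in every sample the turned log2 fold changes were -0.0054 for Plk1 and -0.0021 for Tpx2. With the replicate block the turned log2 fold changes were 0.021 for Mcm3, 0.14 for Mcm5, 0.18 for Rrm2, 0.047 for Ccnb1, 0.0086 for Bub1b and 0.061 for Top2a. With limma-voom the turned log2 fold changes were -0.098 for Mcm7, -0.31 for Gins2, -0.23 for Tyms, -0.18 for Ccna2, -0.18 for Ccnb2, -0.030 for Cdc20, -0.12 for Plk1, -0.21 for Aurkb, -0.27 for Tpx2 and -0.20 for Cenpa. Without IKO 4 and WT 3 the turned log2 fold changes were 0.061 for Mcm3, 0.0038 for Mcm5 and 0.020 for E2f1. Without IKO 4, WT 3 and WT 4 the turned log2 fold changes were -0.15 for Gins2, -0.012 for Tyms, -0.12 for Ccna2, -0.00076 for Ccnb2, -0.059 for Plk1, -0.18 for Aurkb, -0.15 for Tpx2 and -0.023 for Cenpa. With the length trend removed the turned log2 fold changes were 0.024 for Mcm5, 0.032 for Cdc6, -0.091 for Ccnb2, 0.0061 for Bub1b, -0.038 for Plk1 and 0.20 for Top2a. With the length trend removed and without IKO 4 and WT 3 the turned log2 fold changes were 0.061 for Mcm3, 0.026 for Mcm5, 0.013 for Ccnb1, -0.092 for Ccnb2, -0.075 for Plk1, -0.040 for Aurkb and 0.19 for Top2a. When each mouse was left out in turn, the log2 fold changes of the members that changed sign ranged as follows: Mcm3 -0.22 to 0.057, Mcm5 -0.19 to 0.15, Mcm7 -0.030 to 0.15, Gins2 -0.0053 to 0.29, Rrm2 -0.20 to 0.14, E2f1 -0.32 to 0.014, Ccna2 -0.00045 to 0.31, Ccnb1 -0.20 to 0.12, Ccnb2 -0.055 to 0.16, Bub1b -0.17 to 0.12, Plk1 -0.077 to 0.13, Tpx2 -0.076 to 0.23, Cenpa -0.018 to 0.22 and Top2a -0.20 to 0.14. Bub1, the member with the lowest count in any library (14), had a 95% interval from -1.39 to 0.27, and differences inside it were not excluded here. The 2 fits with the length trend removed were chosen after seeing the data.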

Other observations

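Markers of several cell types differed in their values between genotypes. Of 14 crypt stem cell genes, 10 had fold changes below 0 (median -0.37), and 5 had an unadjusted p under 0.05 (35.7%, against 30.4% of all genes), each below 0. Olfm4, which marks cells of the crypt base, had a mean of 103 CPM in WT and 50.7 CPM in IKO mice (-1.03, adjusted p = 0.083), and Lgr5, the stem cell receptor gene, 2.38 and 1.11 CPM (-1.10, adjusted p = 0.10). Both were picked after their values were seen. The 4 genes above 0 were Axin2 (0.28), Rnf43 (0.12), Prom1 (0.09) and Cdca7 (0.36). Smoc2, Znrf3, Slc12a2, Rgmb, Msi1 and Tnfrsf19, all below 0, were highest in WT 4, which also had the highest smooth muscle sum. The part of that mouse in the list's values was not tested. Of 9 B cell genes all 9 were below 0 (median -2.25, 8 at an unadjusted p under 0.05), as were all 8 smooth muscle genes (median -3.04, 1 at that p), 7 of 8 myeloid genes (median -0.40), all 5 plasma cell genes (median -0.33) and 8 of 10 T cell genes (median -0.37). The smooth muscle sum was 13415 CPM in WT 4, against medians of 34.5 CPM in WT and 20.2 CPM in IKO mice. The B cell sum ran from 6.21 to 722 CPM in WT mice, highest in WT 3, and from 14.3 to 65.3 CPM in IKO mice. In WT 2, WT 5 and WT 6 the B cell sum lay below every IKO mouse. All 9 epithelial genes were above 0 (median 0.30), as were 10 of 15 villus enterocyte genes (median 0.36) and 6 of 8 Paneth cell genes (median 0.31). Over all genes tested, 43.5% had fold changes above 0. The edgeR test called 0 genes in each of these lists, against 8.67% of all genes. No test compared them with the 36 members.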
